A study of Mus musculus with 12 samples.

Results

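Retinoic acid is a vitamin A derivative that acts as a signal between cells of the developing spinal cord, and 9 of the 45777 genes in the deposited tables were followed here because of their place in its pathway. They were chosen by function: the synthesising enzymes *Aldh1a1*, *Aldh1a2* and *Aldh1a3*, the binding proteins *Crabp1* and *Crabp2*, the degrading enzymes *Cyp26a1*, *Cyp26b1* and *Cyp26c1*, and the receptor *Rarb*. Bulk RNA-seq covered 12 mouse libraries of E12.5 ventral spinal cord, with 3 *Isl2* heterozygote (*Isl2* +/-) and 3 *Isl2* KO (*Isl2* -/-) libraries for the brachial (forelimb) cord and as many for the lumbar (hindlimb) cord. Isl2 is a LIM homeodomain factor of motor neurons (MNs). Its KO allele carries a neomycin cassette in place of several exons in all cells, and the heterozygous controls also carry 1 such allele. All tissue was trimmed around the *Hb9::GFP* reporter, which labels MNs, but MNs were not sorted, so other ventral cells contributed.

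Cells make retinoic acid by oxidising retinol to retinaldehyde and then retinaldehyde to the acid, and enzymes of the Aldh1a family carry out the last step. In the cell the acid is bound by Crabp proteins, broken down by Cyp26 cytochromes, or brought to RAR/RXR receptors, which sit on DNA at paired hexamers called retinoic acid response elements. In the limb-level spinal cord *Aldh1a2* (also called *Raldh2*) is known from lateral motor column MNs and from the meninges, and MN-derived retinoic acid takes part in the choice between lateral and medial limb-innervating MNs.

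The promoters of *Rarb* and *Cyp26a1* are shown because both carry the classical response element with 5 letters between its repeats, termed DR5. The sequences are RefSeq GRCm38.p6, read 5′ to 3′ on the strand of the gene, with the element in capitals. The *Rarb* window is chr14:16575477-16575596 on the minus strand, and its element lies 53 to 37 bases before the transcript start used in the table, a start that falls inside the span of the gene. The *Cyp26a1* window is chr19:37697688-37697807 on the plus strand, and its element, which reads in the opposite direction, lies 32 to 16 bases before the start used in the table, which also falls inside the span of the gene.

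Rarb: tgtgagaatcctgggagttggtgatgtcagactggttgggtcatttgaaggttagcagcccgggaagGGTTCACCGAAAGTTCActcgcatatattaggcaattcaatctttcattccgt

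Cyp26a1: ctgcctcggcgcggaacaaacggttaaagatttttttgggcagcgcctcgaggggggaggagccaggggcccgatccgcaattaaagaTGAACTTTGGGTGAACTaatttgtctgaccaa

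Read on the strand where its repeats face forward, the element is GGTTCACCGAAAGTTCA in *Rarb* and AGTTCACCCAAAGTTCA in *Cyp26a1*. The 4 hexamers searched were AGGTCA as the consensus form, AGTTCA as a variant, GGGTCA as another variant and GGTTCA as the last. The search took any pair of these in the same direction with 5 letters between them, on both strands, from 250 bases before to 50 bases after each start. Of 32851 promoters, 32 (0.097%) held such a pair, while 43.71% held at least 1 single hexamer. The table held 8 promoters for 7 of the 9 genes, and those of *Rarb* and *Cyp26a1* were the 2 with a pair. None of the promoters of 46 other retinoid genes listed further on held one. A match describes the letters of the window and is not evidence of a bound site. The table held no promoter for *Aldh1a3* and *Crabp2*.

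The libraries held 4.48 to 6.64 Gb of aligned bases, and between 22983 and 24191 genes had values above 0. *Isl2* itself, at 8.33 to 9.72 TPM (a measure per transcript length and library total, rescaled between libraries) in brachial heterozygotes, was at 4.47 to 7.28 TPM in brachial KO. At the lumbar level it was at 8.44 to 10.3 TPM in heterozygotes and 6.53 to 8.24 TPM in KO, so the genotypes did not overlap at either level, as for 10.3% of all genes lower in brachial KO and 5.51% in lumbar KO. *Isl2* was not called by limma (log2 difference -0.61, adjusted p = 0.359, and -0.35, adjusted p = 0.999), and a log2 fold change beyond 0.5 with an unadjusted p under 0.05, the threshold of the study, was met at the brachial level only. Each of the 8 MN markers was detected in all libraries. The methods name 3 animals per genotype, but the X- and Y-linked transcripts of the heterozygous libraries gave 1 female and 2 males at the brachial level and 2 females and 1 male at the lumbar level, so the heterozygous libraries of the 2 levels do not all come from the same 3 embryos. The KO libraries gave 1 female and 2 males at both levels. Some brachial and lumbar libraries may share an embryo, and the tests between levels treat all 12 as independent. The p-values below weigh a difference against the spread between libraries. For the tests between levels, whether this is a spread between separate embryos is unknown.

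The 9 genes spanned more than 3 orders of magnitude. Averaged over the 12 libraries, *Crabp1* stood highest at 273 TPM and *Crabp2* next at 254 TPM, percentiles 97.5 and 97.2 among 13288 protein-coding genes tested. *Aldh1a2* followed at 96.2 TPM and *Rarb* at 69.4 TPM. The degrading enzymes were far lower, with *Cyp26a1* at 2.66 TPM and *Cyp26b1* at 1.02 TPM, percentiles 15.1 and 5.6. *Aldh1a1* (0.0979 TPM), *Cyp26c1* (0.0545 TPM) and *Aldh1a3* (0.0398 TPM) were near or at 0 in every library. These 3 did not reach the mean of 0.5 TPM required for the tests across all genes, which left 6 of the 9 genes. Neighbours in this order overlapped between *Crabp1* and *Crabp2* and, at the lumbar level, between *Aldh1a2* and *Rarb*, whereas *Cyp26a1* exceeded *Cyp26b1* and *Rarb* exceeded *Cyp26a1* in all 12 libraries.

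**Figure D1:**
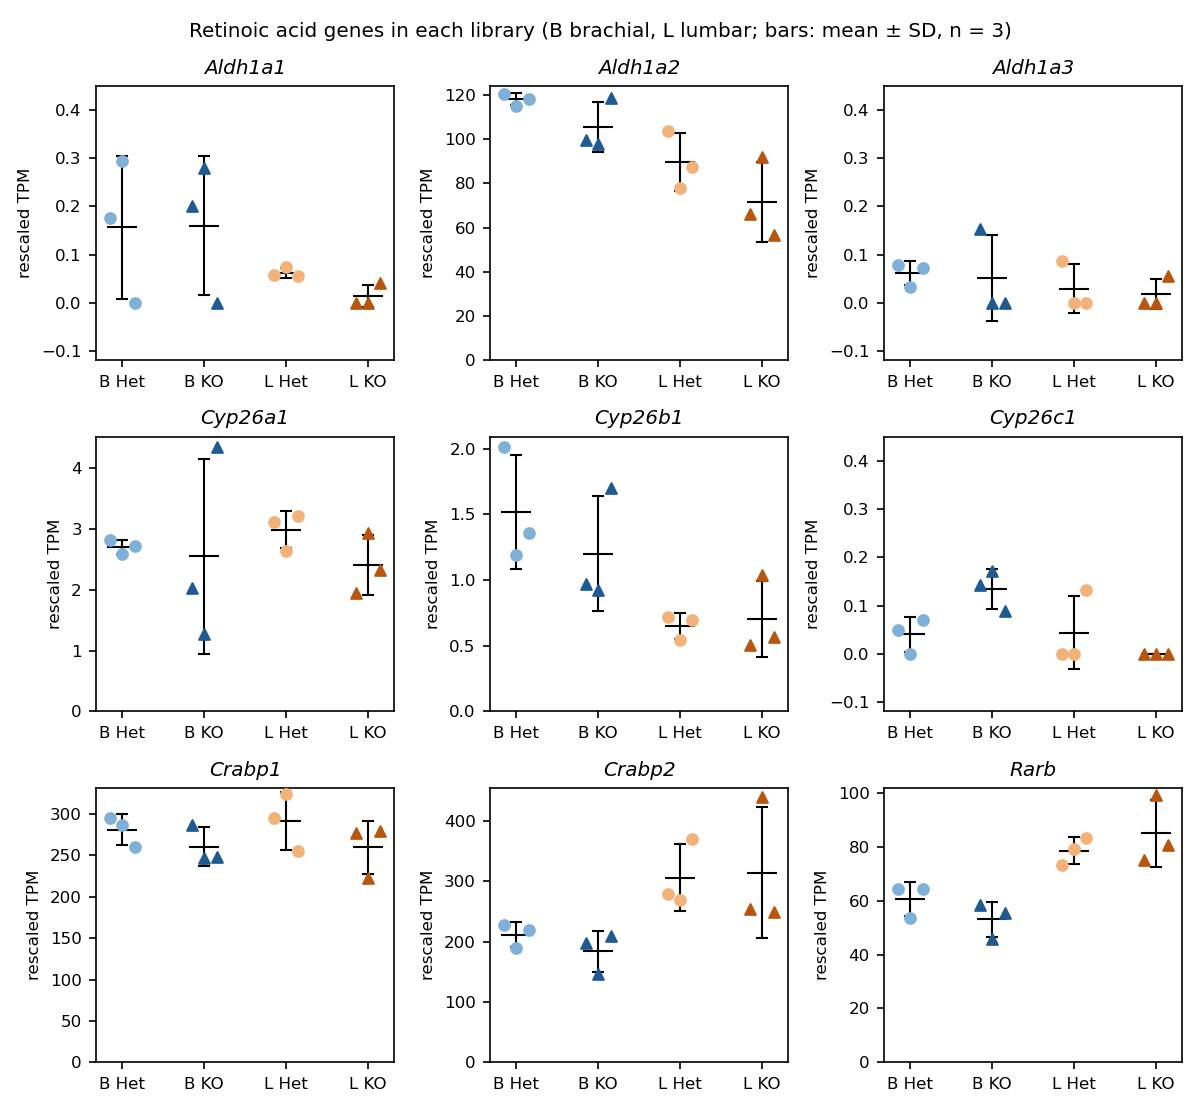
Rescaled TPM (linear vertical axes, a separate scale for each gene) of the 9 genes in each library; circles are heterozygotes, triangles KO, blue brachial (B) and orange lumbar (L), and bars give mean ± SD of 3 libraries. *Crabp2* and *Rarb* are higher in all 6 lumbar than in all 6 brachial libraries, *Aldh1a2* and *Cyp26b1* lie lower at the lumbar level, and *Aldh1a1*, *Aldh1a3* and *Cyp26c1* do not exceed 0.294 TPM anywhere.

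The comparison of levels asked whether the pathway differed between the forelimb and hindlimb cord. *Aldh1a2* and *Cyp26b1* were lower and *Crabp2* and *Rarb* higher at the lumbar level, while no difference was detected for *Cyp26a1* and *Crabp1*. In limma, over all 12 libraries with genotype as a term, 4 of the 6 genes tested were called at an adjusted p under 0.05, against 18.5% of the 16736 genes tested. By direction, 2 of 6 were higher at the lumbar level (8.88% of all genes) and 2 of 6 were higher at the brachial level (9.65% of all genes). The median of the 6 log2 differences was 0.06, beside 0.01 for all genes. In bulk tissue, fewer cells of a type and less RNA per cell cannot be told apart, which applies to every difference below.

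*Aldh1a2*, the main retinaldehyde dehydrogenase of the cord, supplied at least 99.6% of the summed TPM of the 3 Aldh1a genes in each library. In brachial heterozygotes it was at 121, 115 and 118 TPM, and in brachial KO at 99.9, 98.1 and 119 TPM. In lumbar heterozygotes it was at 104, 78.0 and 87.6 TPM, and in lumbar KO at 66.2, 91.8 and 56.7 TPM. Within each genotype all brachial libraries were above all lumbar ones, as for 6.55% of all genes tested, although the highest lumbar heterozygote exceeded 2 brachial KO libraries. Over all 12 libraries, 4.68% of genes were lower at the lumbar level without overlap, and *Aldh1a2* was not among them. The lumbar level was 1.41-fold lower (log2 difference -0.49, SE 0.11, 95% interval -0.73 to -0.26, limma adjusted p = 0.00808). The exact permutation p over libraries, with levels permuted within each genotype, was 0.005, the smallest this design can give.

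*Aldh1a2* is known from MNs and from meninges. Markers of both moved with it only in part. Among 8 MN markers 2 were lower at the lumbar level, *Prph* (peripherin, an axonal intermediate filament; log2 difference -2.62) and *Slc5a7* (the choline transporter; -1.10), and none was higher. The summed MN markers were at 417 to 504 TPM in brachial and 181 to 310 TPM in lumbar libraries. *Prph*, at a mean of 285 TPM brachially and 48.6 TPM at the lumbar level, accounted for this fall, since the other 7 markers summed to 176 to 196 TPM in brachial and 146 to 233 TPM in lumbar libraries. The median log2 difference of the 8 markers was 0.13, and 5 of 8 were above 0 without being called (*Mnx1* 0.25, *Lhx3* 0.45, *Chat* 0.16, *Isl1* 0.09 and *Isl2* 0.20). Of 6 lateral motor column markers 1, *Etv4*, was lower at the lumbar level (-1.60), and the list summed to 147 to 193 TPM brachially and 117 to 159 TPM at the lumbar level. Of 10 meningeal and mesenchymal markers 5 were tested and 4 were lower at the lumbar level (*Foxc1*, *Pdgfra*, *Col1a2* and *Dcn*). The list summed to 67.7 to 93.3 TPM in brachial and 46.7 to 68.4 TPM in lumbar libraries, most of it *Dcn*, and *Col1a1*, *Foxd1*, *Twist1*, *Prrx1* and *Lum* were below 0.62 TPM throughout. These 5 untested markers had higher means at the lumbar level (for *Foxd1* 0.348 against 0.190 TPM), and *Col3a1* was tested and not called (log2 difference -0.01). Their part in the *Aldh1a2* difference was not tested.

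*Aldh1a1* and *Aldh1a3*, which serve retinoic acid synthesis in the eye and other tissues, were barely detected. *Aldh1a1* was listed at 0 in 4 of 12 libraries and *Aldh1a3* at 0 in 6 of 12. Their highest values were 0.294 TPM, in brachial heterozygote 2, and 0.154 TPM, in brachial KO 1. In the lumbar libraries *Aldh1a1* was at 0.0581, 0.0742 and 0.0544 TPM in heterozygotes and at 0, 0 and 0.0402 TPM in KO, without overlap, as were 5.51% of all genes tested at this level in that direction and 4.43% in the other, but these values are too low to rank.

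The Crabp genes encode the cellular retinoic acid binding proteins. Crabp2 is known for passing the acid to its nuclear receptors, and Crabp1 for holding it in the cytoplasm. *Crabp2* was at 227, 189 and 220 TPM in brachial heterozygotes and 198, 146 and 209 TPM in brachial KO. In lumbar heterozygotes it was at 280.0, 269 and 370 TPM, and in lumbar KO at 255, 440.2 and 249 TPM. All 6 lumbar libraries exceeded all 6 brachial ones, with lumbar KO 2 and lumbar heterozygote 3 standing well above the other 4. The lumbar level was 1.55-fold higher (log2 difference 0.63, SE 0.15, 95% interval 0.31 to 0.95, limma adjusted p = 0.0117). The exact permutation p was again 0.005, and 3.64% of all genes tested were higher at the lumbar level without overlap.

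*Crabp1* lies on chromosome 9 (54764748 to 54773110, mm10), 0.77 Mb from *Isl2*, and was at 247 to 295 TPM in brachial and 223 to 324 TPM in lumbar libraries. Its log2 difference between levels was 0.02 with a 95% interval of -0.15 to 0.19 (limma adjusted p = 0.884). *Crabp1* exceeded *Crabp2* in all 6 brachial libraries but in 4 of the 6 lumbar ones, and *Crabp2* was the higher in lumbar heterozygote 3 and lumbar KO 2. The ratio of *Crabp2* to *Crabp1*, which does not depend on the scaling between libraries, was 0.591 to 0.847 at the brachial and 0.830 to 1.98 at the lumbar level. The log2 ratio was 0.61 higher at the lumbar level (exact permutation p = 0.01, two-sided). Leaving out 1 library at a time gave 0.42 to 0.71. Without brachial KO 2 the exact permutation p was 0.055, with the log2 ratio still 0.55 higher.

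**Figure D2:**
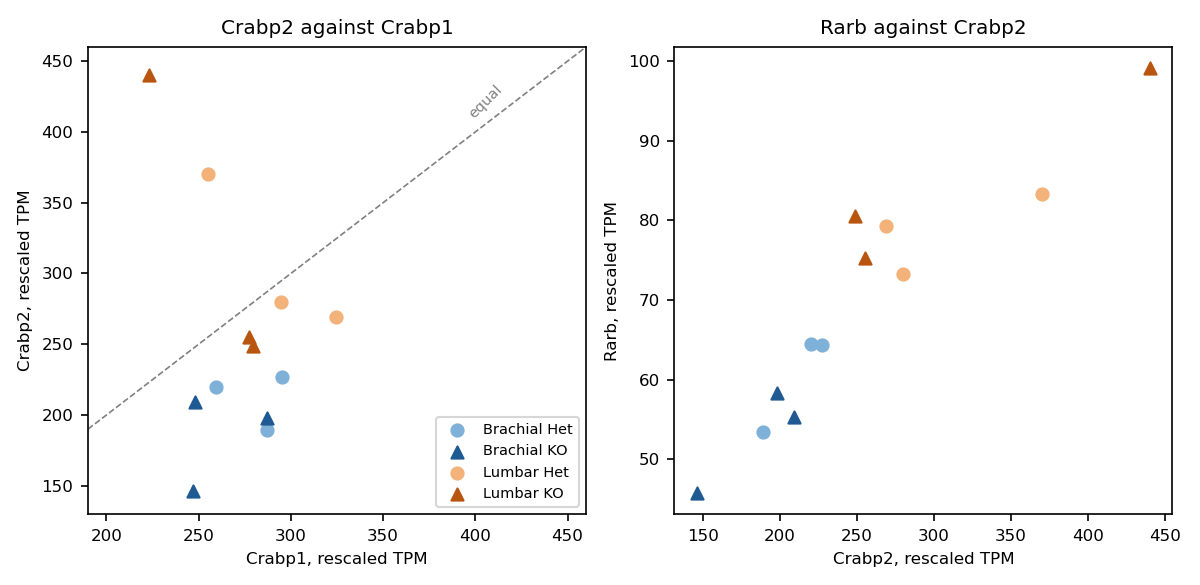
Each point is 1 of the 12 libraries on rescaled TPM axes, with *Crabp2* against *Crabp1* on the left (the dashed line marks equal levels) and *Rarb* against *Crabp2* on the right. Lumbar KO 2 and lumbar heterozygote 3 lie above the line of equal levels, and *Rarb* increases along with *Crabp2* in both colours.

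Cyp26 enzymes hydroxylate retinoic acid and clear it. *Cyp26b1* was at 2.01, 1.19 and 1.36 TPM in brachial heterozygotes and 0.971, 0.926 and 1.70 TPM in brachial KO. It was at 0.721, 0.540 and 0.699 TPM in lumbar heterozygotes and 0.508, 1.04 and 0.568 TPM in lumbar KO. The heterozygous libraries of the 2 levels did not overlap, as for 13% of all genes tested in this direction, while lumbar KO 2 exceeded 2 brachial KO libraries. The lumbar level was 1.85-fold lower (log2 difference -0.89, SE 0.22, 95% interval -1.38 to -0.40, limma adjusted p = 0.0165, exact permutation p = 0.015). With a pseudocount of 1 the log2 difference was -0.48 (limma adjusted p = 0.0175). At about 1 TPM this gene is near the low end of what was tested.

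*Cyp26a1*, whose promoter carries the DR5 shown above, was at 1.28 to 4.35 TPM in brachial and 1.96 to 3.21 TPM in lumbar libraries. Its spread was widest in brachial KO, with 2.03, 1.28 and 4.35 TPM, and brachial KO 3 held both the highest *Cyp26a1* value and the least depth, 4.48 Gb. The level difference was 0.10 (95% interval -0.38 to 0.59, limma adjusted p = 0.799). *Cyp26a1* made up 53.8% to 70.8% of the summed Cyp26 TPM in brachial and 73.9% to 83.0% in lumbar libraries. The ratio of *Aldh1a2* to the sum of *Cyp26a1* and *Cyp26b1*, synthesis set against breakdown, was 19.6 to 44.5 at the brachial and 19.6 to 27.04 at the lumbar level, and the levels did not differ beyond their spread (log2 difference -0.30, exact permutation p = 0.14).

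*Cyp26c1*, next to *Cyp26a1* on chromosome 19, was listed at 0 in 6 of 12 libraries. It was at 0.0494, 0 and 0.0705 TPM in brachial heterozygotes and at 0.142, 0.172 and 0.0887 TPM in brachial KO, without overlap (exact permutation p = 0.1, the smallest that 3 against 3 allows). Of all genes tested at the brachial level, 9.67% were higher in KO without overlap. *Cyp26c1* was not among those tested, and its values are too low to rank. An antisense gene, *Gm32342*, overlaps *Cyp26c1* and averaged 0.232 TPM.

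*Rarb* encodes retinoic acid receptor beta and is itself a classical target of the pathway through the DR5 in its promoter. It was at 64.4, 53.5 and 64.4 TPM in brachial heterozygotes and 58.3, 45.8 and 55.2 TPM in brachial KO. In lumbar heterozygotes it was at 73.2, 79.3 and 83.3 TPM, and in lumbar KO at 75.2, 99.1 and 80.6 TPM. As with *Crabp2*, the 6 lumbar libraries were all above the 6 brachial ones, as for 3.64% of all genes tested. Lumbar KO 2 was the highest. The lumbar level was 1.44-fold higher (log2 difference 0.52, SE 0.09, 95% interval 0.32 to 0.73, limma adjusted p = 0.00266, exact permutation p = 0.005). *Rarb* made up 72.8% to 85.3% of the summed TPM of the 3 RAR genes, with *Rara* at 13.6% to 25.2% and *Rarg* at up to 2.54%.

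**Figure D3:**
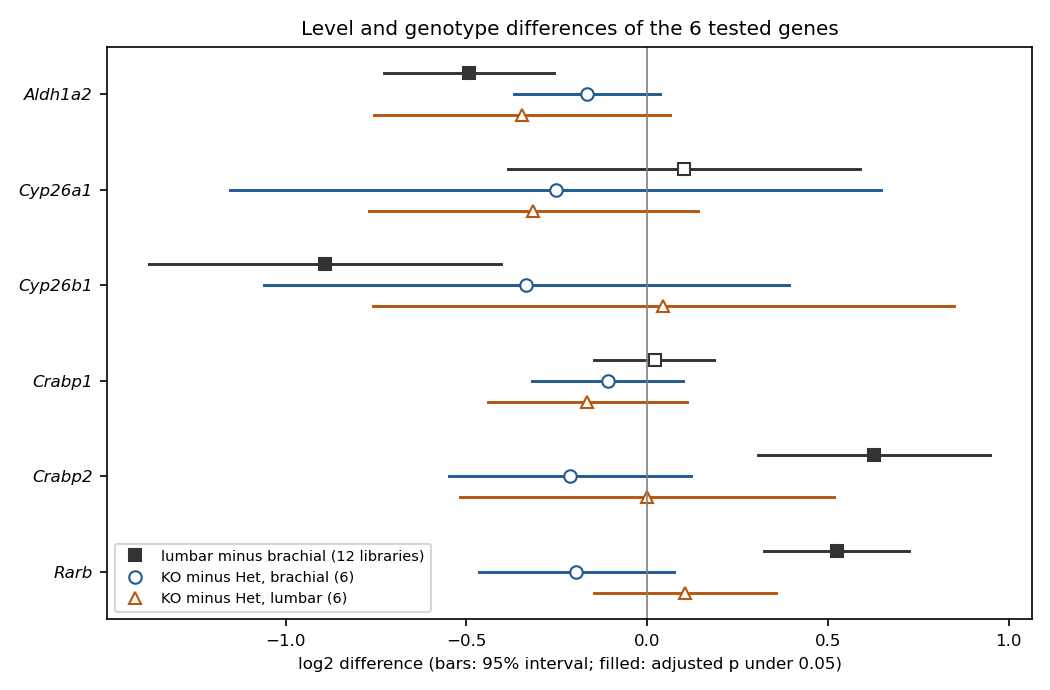
Log2 differences (horizontal axis) of the 6 tested genes with 95% intervals: squares compare lumbar with brachial in 12 libraries, and circles and triangles compare KO with heterozygote at the brachial and lumbar levels in 6 libraries each. Filled symbols have a limma adjusted p under 0.05, and only the level differences of *Aldh1a2*, *Cyp26b1*, *Crabp2* and *Rarb* are filled.

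Neural progenitor markers moved with *Crabp2* and *Rarb*. Of 6 such markers 5 (*Hes5*, *Vim*, *Nes*, *Sox2* and *Nkx6-1*) were higher at the lumbar level and *Olig2*, which marks MN progenitors, was lower. The paper uses Nkx6.1 as a marker of some MN columns, so *Nkx6-1* is not particular to progenitors here. The sum of the 6 markers, most of it *Vim*, was 787 to 1014 TPM in brachial and 1050 to 1355 TPM in lumbar libraries. Lumbar KO 2 had the highest progenitor sum and the highest *Crabp2* and *Rarb*, and brachial KO 2 had the lowest of all 3. Also higher at the lumbar level were 3 of 6 ventral interneuron markers, *Sim1* and *En1* among them, and all 6 were above 0. Among 9 dorsal progenitor and interneuron markers *Lhx9* was called higher and *Barhl1* lower. Lower at the lumbar level, as *Aldh1a2* was, were 2 of 4 endothelial markers (*Kdr* and *Cldn5*; sums of 53.7 to 74.7 and 43.8 to 56.7 TPM) and 2 of 3 microglial markers (*Csf1r* and *Cx3cr1*; sums of 6.17 to 9.55 and 2.67 to 5.55 TPM). The part of these cell types in the results was not tested. Without lumbar KO 2 the level difference was 0.50 for *Crabp2* and 0.46 for *Rarb* on the log2 scale, and both were still called.

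**Figure D4:**
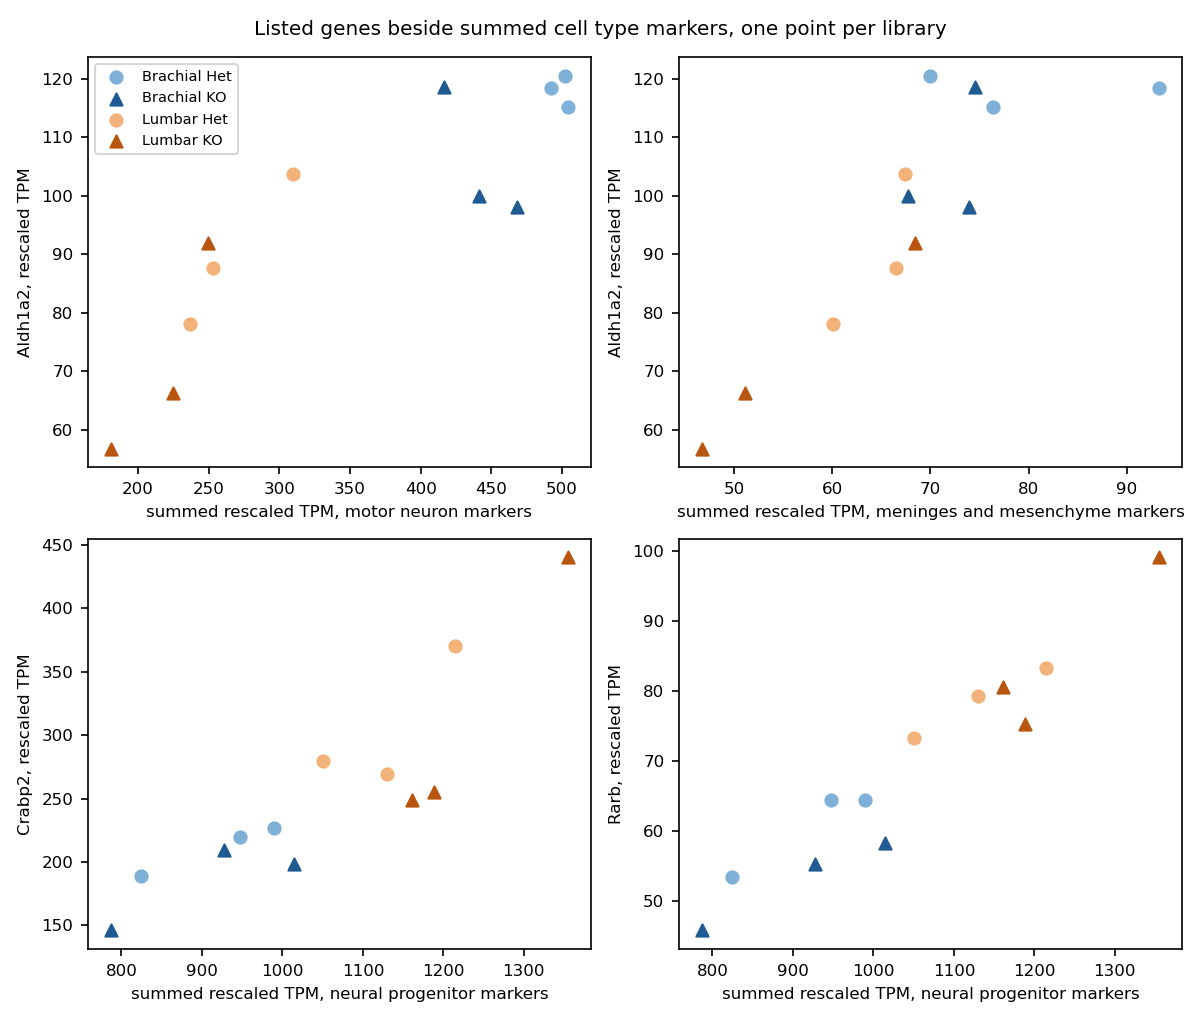
*Aldh1a2* against the summed markers of MNs and of meninges and mesenchyme (top), and *Crabp2* and *Rarb* against the summed neural progenitor markers (bottom), all in rescaled TPM with 1 point per library. Brachial libraries lie at 417 to 504 TPM and lumbar at 181 to 310 TPM of MN markers, but at 176 to 196 and 146 to 233 TPM without *Prph*, and at 787 to 1014 and 1050 to 1355 TPM of progenitor markers.

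Both genotypes showed the level differences in the same direction. In heterozygotes alone, the log2 differences were -0.40 for *Aldh1a2*, -1.08 for *Cyp26b1*, 0.52 for *Crabp2* and 0.37 for *Rarb*, with limma adjusted p-values of 0.0714 to 0.0787 in 6 libraries. In KO alone they were -0.58, -0.70, 0.74 and 0.68 in the same order, with limma adjusted p-values of 0.0512 to 0.298. None of the 4 passed the threshold within 1 genotype.

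Across the 12 libraries *Crabp2* and *Rarb* moved together, with a Pearson correlation of 0.94 on log2 values, 0.94 within the 6 brachial and 0.85 within the 6 lumbar libraries. *Aldh1a2* correlated with *Cyp26b1* at 0.85 over 12 libraries, at 0.88 in the brachial and 0.67 in the lumbar ones. Over 12 libraries *Aldh1a2* and *Rarb* gave -0.54, but 0.64 and 0.17 within the levels. All these points share the library, its scaling and its mixture of cells, and the values over 12 libraries also contain the level difference.

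The protein-coding genes whose log2 values were most like each gene were taken from 12560 with a mean of at least 1 TPM. For *Rarb* they were *Chtf8* (Pearson correlation 0.99), *Ints14* (0.99) and *Jam3* (0.98), and for *Crabp2* *Lpar6* (0.98) and *Clic1* (0.97). For *Aldh1a2* they were *Comtd1*, *Cdh22* and *Faah* (all 0.91), and for *Cyp26b1* *Mecom* (0.92), *Foxq1* (0.91) and *Zfp109* (0.89). *Cyp26a1* was most like *Pacc1* (0.91), then *Ing2* (0.82) and *Coq4* (0.80), and *Crabp1* most like *Akirin2* (0.91), *Gm4631* (0.90) and *Chmp2b* (0.89).

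Further genes of the pathway were listed by role. Of 20 genes of retinol and retinal metabolism 8 were tested. At the lumbar level 2 were higher and none lower, against 8.88% and 9.65% of all genes. *Dhrs3*, which reduces retinaldehyde back to retinol and is also a known retinoic acid target, was at 8.63 to 14.95 TPM brachially and 13.0 to 19.0 TPM at the lumbar level (log2 difference 0.46, limma adjusted p = 0.0309). *Adh5* was higher by 0.21 (limma adjusted p = 0.0412). *Rdh10*, the dehydrogenase that makes retinaldehyde in embryos, was at 11.1 to 17.6 TPM in brachial and 13.0 to 16.8 TPM in lumbar libraries and was not called.

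Of 8 uptake and transport genes 5 were tested and 3 were called, against 18.5% of all genes. *Stra6l*, a receptor for the serum retinol carrier, was at 1.45 to 3.34 TPM brachially and 5.03 to 8.74 TPM at the lumbar level, 2.80-fold higher (limma adjusted p = 6.18e-05). *Rbp2*, a cellular retinol binding protein, was at 1.05 to 2.94 and 3.07 to 5.99 TPM, 2.38-fold higher (limma adjusted p = 0.00864). For both, no lumbar library overlapped a brachial one, as for 3.64% of all genes tested in this direction. *Stra6*, the better known receptor for the retinol carrier, went the other way, at 3.47 to 7.28 and 2.47 to 3.95 TPM (1.46-fold lower, limma adjusted p = 0.0275).

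All 15 receptors and cofactors were tested, and 1 was called, against 18.5% of all genes. This was *Rxra*, the RXR partner of the RARs, at 7.80 to 8.29 TPM in brachial and 8.11 to 11.3 TPM in lumbar libraries (log2 difference 0.26, limma adjusted p = 0.0307). *Rara* was at 11.0 to 19.1 and 13.3 to 20.6 TPM and was not called (0.31, limma adjusted p = 0.108).

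Of 25 known target genes 20 were tested. At the lumbar level 3 were higher and 6 lower, against 8.88% and 9.65% of all genes. *Hox* genes, which are known for encoding position along the body axis, were among those called: *Hoxd4* was higher (log2 difference 0.70), and *Hoxc5* (-1.65), *Hoxa5* (-1.06) and *Hoxa4* (-0.41) were lower. *Nr2f1*, an orphan nuclear receptor (0.38), and *Dhrs3* were also higher, and *Tshz1* (-0.25) and *Stra6* also lower. The median log2 difference was 0.02 for the target list, 0.00 for receptors and cofactors, 0.07 for metabolism and 0.19 for transport, beside 0.01 for all genes tested.

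**Figure D5:**
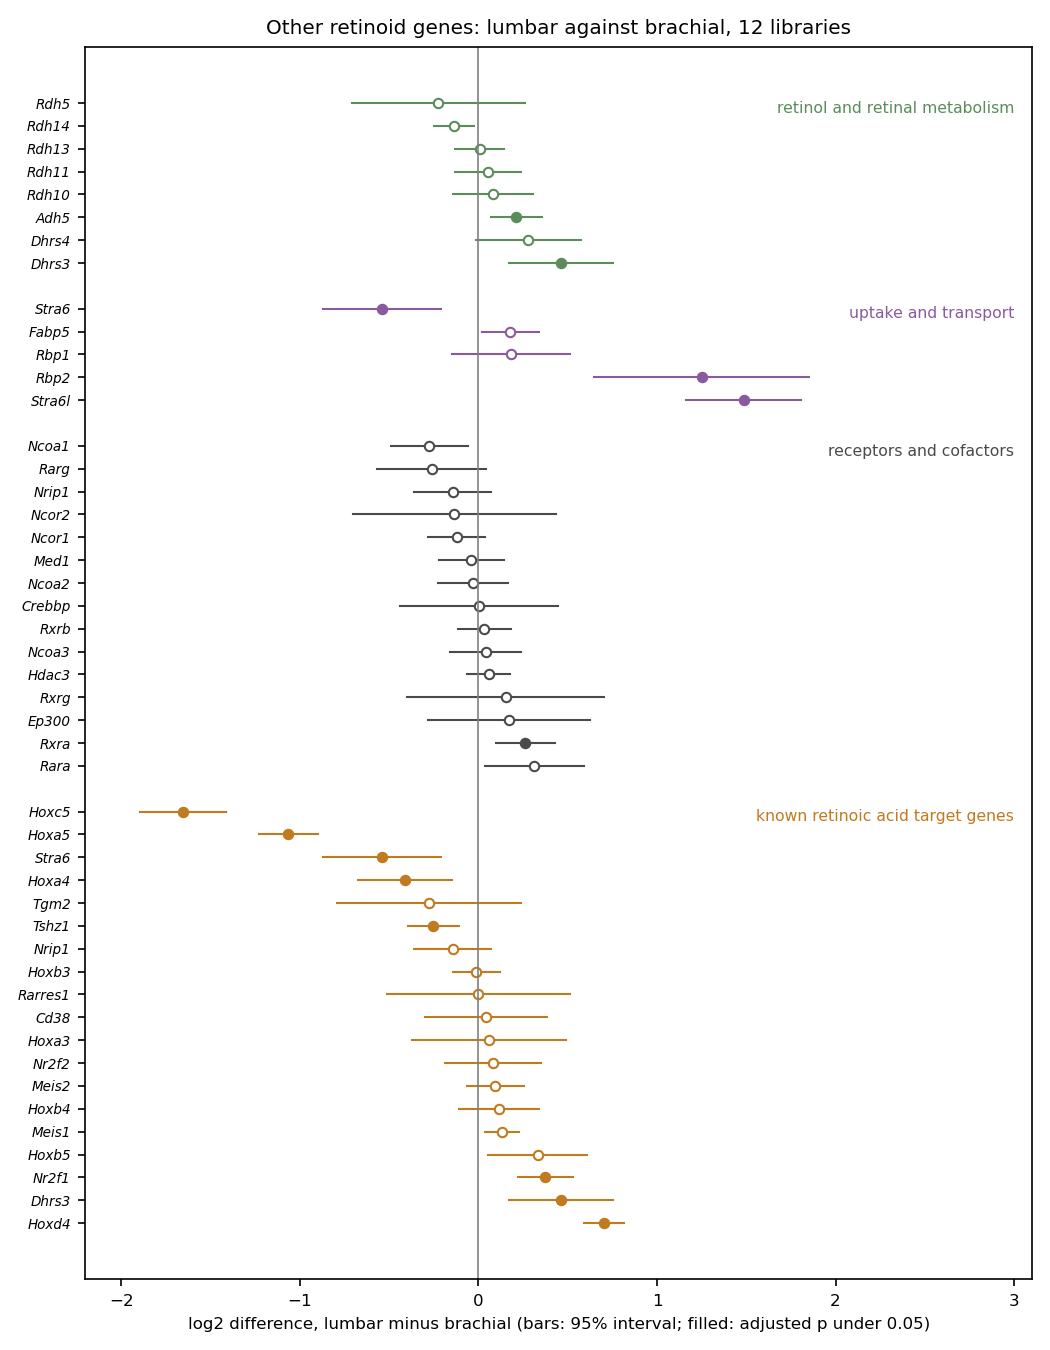
Log2 difference between lumbar and brachial libraries (horizontal axis; bars are 95% intervals, n = 12) for tested genes of 4 further lists, coloured by list, with *Stra6*, *Dhrs3* and *Nrip1* shown in both lists that hold them. Filled points have a limma adjusted p under 0.05, and *Stra6l* and *Rbp2* reach the highest positive values while *Hoxc5* and *Hoxa5* reach the lowest.

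The comparison of KO with heterozygote asked whether loss of *Isl2* altered the pathway. No difference was detected in any of the 6 tested genes at either level. At the brachial level 0 of 6 were called by limma at an adjusted p under 0.05 and 0 of 6 had an unadjusted p under 0.05, against 1 gene (0.0059%) and 2337 genes (13.8%) of 16935. At the lumbar level 0 of 6 were called and 0 of 6 had an unadjusted p under 0.05, against 0 genes and 805 genes (4.88%) of 16511. The study's own threshold, a log2 fold change beyond 0.5 with an unadjusted p under 0.05, was met by none of the 6, against 3.1% of genes at the brachial level (0.874% lower and 2.23% higher in KO) and 1.77% at the lumbar level (0.793% lower and 0.975% higher). This count rested on single libraries: without lumbar KO 2, lumbar *Aldh1a2* met the threshold (log2 difference -0.54, limma unadjusted p = 0.00477, adjusted p = 0.773), and without brachial KO 3, brachial *Cyp26a1* did (-0.71, limma unadjusted p = 0.02, adjusted p = 0.675).

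*Aldh1a2* came nearest, in the KO libraries listed above. Its log2 difference was -0.17 at the brachial level (95% interval -0.37 to 0.03, limma adjusted p = 0.388) and -0.35 at the lumbar level (-0.76 to 0.06, limma adjusted p = 0.999). Brachial KO 3 and lumbar KO 2 lay within the heterozygote range, and the other 4 KO libraries lay below it. Leaving out 1 library gave -0.25 to -0.12 at the brachial level, lowest without KO 3 (limma unadjusted p = 0.00763, adjusted p = 0.675), and -0.54 to -0.19 at the lumbar level, lowest without KO 2 and nearest to 0 without KO 3. With the TPM as deposited, without rescaling, the brachial difference turned to 0.01. The summed MN markers were 492 to 504 TPM in heterozygotes and 417 to 468 TPM in KO at the brachial level. At the lumbar level they were 237 to 310 and 181 to 250 TPM, with 0 of 8 markers called at either level. The study's threshold was met by *Isl2* in brachial KO and by *Prph* in lumbar KO. Lumbar *Prph* was at a mean of 61.9 TPM in heterozygotes and 35.4 TPM in KO. Without *Prph* and the targeted gene *Isl2*, the other 6 summed to 174 to 186 and 169 to 188 TPM at the brachial level, and to 164 to 223 and 138 to 212 TPM at the lumbar level. The median log2 difference of the 8 markers was -0.07 in brachial KO, with 4 of 8 above 0, and -0.33 in lumbar KO, with 0 of 8 above 0. The 6 lateral motor column markers summed to 150 to 164 TPM in heterozygotes and 147 to 193 TPM in KO at the brachial level. At the lumbar level they summed to 136 to 159 and 117 to 132.5 TPM, so the genotypes did not overlap. Of single genes tested, 5.51% were lower in lumbar KO without overlap. The median log2 difference of the 6 markers was 0.07 in brachial KO, with 4 of 6 above 0. In lumbar KO it was -0.25, with 2 of 6 above 0. None of the 6 was called, and lumbar *Etv4* met the study's threshold (2.01-fold lower in KO, limma unadjusted p = 0.00155, adjusted p = 0.986). The 10 meningeal and mesenchymal markers summed to 70.0 to 93.3 and 67.7 to 74.5 TPM at the brachial level. At the lumbar level they summed to 60.0 to 67.4 TPM in heterozygotes and to 51.1, 68.4 and 46.7 TPM in KO 1, 2 and 3, so KO 2 alone was not below the heterozygotes, as for *Aldh1a2*. None of those tested was called. The part of these in the *Aldh1a2* values was not tested. *Aldh1a2* lies on the same chromosome as *Isl2*, at 71215789 to 71296243 of chromosome 9, 15.7 Mb away.

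The binding proteins and the receptor were likewise not called. At the brachial level the log2 differences were -0.11 (95% interval -0.32 to 0.10) for *Crabp1*, -0.21 (-0.55 to 0.12) for *Crabp2* and -0.20 (-0.47 to 0.07) for *Rarb*. At the lumbar level they were -0.17 (-0.44 to 0.11), 0.00 (-0.52 to 0.52) and 0.10 (-0.15 to 0.36) in the same order. For all 3 the genotypes overlapped at both levels, while 10.3% of all genes were lower in brachial KO without overlap.

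*Cyp26a1* differed by -0.25 (-1.15 to 0.65) at the brachial and -0.31 (-0.77 to 0.14) at the lumbar level, and *Cyp26b1* by -0.33 (-1.06 to 0.39) and 0.05 (-0.76 to 0.85). Each of these intervals reached below -0.75, so a moderate fall of the degrading enzymes in KO was not excluded with 3 libraries a group. At the brachial level all 6 values were below 0 with a median of -0.21, beside -0.01 for all genes, but the signs were not fixed: as deposited, *Aldh1a2* and *Crabp1* were above 0, and quantile normalization turned *Crabp1* and coverage values turned *Cyp26b1*. Without rescaling, the median of all genes itself moved to 0.16.

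None of the other retinoid genes was called by limma in KO against heterozygote at either level. By the study's threshold 1 was, *Hoxa3*, at 7.87 to 8.74 TPM in lumbar heterozygotes and 9.71 to 14.4 TPM in lumbar KO (log2 difference 0.59, limma adjusted p = 0.997). The median log2 differences in brachial KO were -0.19 for metabolism, 0.04 for transport, 0.28 for receptors and cofactors and 0.08 for targets, and in lumbar KO -0.02, 0.09, 0.07 and 0.06 in the same order.

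The effect of KO was also compared between levels in 1 model. No gene of the 6 was called (limma, 0 of 16736 genes called, and 740 genes, 4.42%, with an unadjusted p under 0.05). *Rarb* had the smallest p of the 6, with its KO effect 0.30 higher at the lumbar level (95% interval -0.07 to 0.67, limma unadjusted p = 0.104, adjusted p = 0.811). Among the others the differences of effect ran from -0.18 for *Aldh1a2* to 0.38 for *Cyp26b1*.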

How the data were processed

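The deposited tables hold 1 value per NCBI gene identifier and library. The authors used Trimmomatic 0.38 for trimming, HISAT2 2.1.0 and Bowtie2 2.3.4.1 for mapping to mm10, and StringTie 2.1.3b for abundance. The deposited TPM values, made by the authors, are scaled to a fixed total per library. The deposited FPKM values, made by the authors in the same run, are per transcript length and mapped fragments. The deposited coverage is the authors' mean per-base signal of a gene. Kits were stranded, but the strand setting of StringTie is not given in the sources used here. The tables hold no counts, so DESeq2 was not run, and no counting interval is given. Depth came from the ratio of coverage to FPKM.

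Symbols came from RefSeq GRCm38.p6 (45679 of 45777 identifiers). Gene positions came from the deposited data, and 96.2% of identifiers had the same start and end in RefSeq. Median-of-ratios size factors (0.893 to 1.25) rescaled the TPM, and log2(TPM + 0.1) entered limma 3.58.1 (R 4.3.3, lmFit and trended eBayes) for all genes whose deposited TPM averaged at least 0.5, with Benjamini-Hochberg adjustment over all genes tested. Fold changes are on the log2(TPM + 0.1) scale. The fits were tested on simulated data. Exact permutation tests over libraries were two-sided. Tables were read with Python 3.11.15, pandas 2.3.3 and numpy 2.4.6, and plots drawn with matplotlib 3.10.9. Groups came from the library titles. Named genes are the 9 genes, *Isl2*, called members of 4 retinoid lists (at most 6 per direction) and the 3 most similar genes of each tested gene; marker genes are named beside results, and uncalled list genes (*Rdh10*, *Rara*) were chosen after their values were seen, as were the MN marker sums without *Prph* or *Isl2*. A called target gene, a similar gene and a marker gene are not reported here. The members and lists were chosen with earlier results of these data known.

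Replicate numbers are shared between groups, but same-numbered libraries did not deviate together (correlations of -0.216 to 0.34), so the main fits have no replicate block. Alternatives changed the pseudocount, filter, scaling, measure, trend, block, libraries fitted and each library in turn.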

Additional observations from a re-analysis of the deposited data

How the results depend on the processing

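The level differences of *Aldh1a2*, *Cyp26b1*, *Crabp2* and *Rarb* kept their direction under all 24 alternatives each and were called in 88 of 96 fits, including each fit without 1 library. The 8 exceptions were the fits within 1 genotype, where 0 of the listed genes were called and fewer libraries entered. Those fits called 502 genes (heterozygotes: 336 higher brachially, 166 lumbar) and 293 genes (KO: 158 and 135). As deposited, without rescaling, the median of all genes moved to -0.13 for the levels, and 646 genes were higher and 2214 lower at the lumbar level. No listed gene was called in KO against heterozygote, or between levels in the KO effect, under any alternative.

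Counts over all genes moved more. In brachial KO the calls were 0 as deposited, with the replicate block and with embryo sex as a term (added after seeing the data), and 2 with coverage or all 12 libraries in 1 fit. By the study's threshold, 148 lower and 377 higher genes became 47 and 1211 as deposited. Lower genes were 92 with a pseudocount of 1 and 287 without filter. In lumbar KO 2 genes were called with all 12 libraries. The 131 lower and 161 higher genes became 77 and 103 with a pseudocount of 1, 288 and 334 without filter, and 222 lower with embryo sex. For the KO effect between levels, 1 gene was called without filter.

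Leaving out 1 library gave 0 to 8 brachial KO calls, 117 to 338 lower (338 without KO 1) and 144 to 1058 higher genes (144 without heterozygote 3, 154 without KO 3, 1058 without KO 1). It gave 0 to 3 lumbar KO calls with 138 to 300 higher genes (300 without KO 2), and 0 to 1 calls for the KO effect between levels. Level calls ranged from 2065 to 3554, with 940 to 1732 higher at the lumbar level, lowest without brachial heterozygote 2. The log2 ratio of *Crabp2* to *Crabp1* ranged from 0.42 to 0.71.

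Signs turned only for uncalled values. In brachial KO, *Aldh1a2* (0.0096) and *Crabp1* (0.068) turned as deposited, *Crabp1* (0.0037) with quantile normalization, and *Cyp26b1* (0.0095) with coverage. In lumbar KO, quantile normalization and coverage turned *Cyp26b1* (-0.012 and -0.082) and *Crabp2* (-0.0037 and -0.001). For levels, *Cyp26a1* (-0.032) and *Crabp1* (-0.12) turned as deposited, and *Crabp1* with quantile normalization (-0.092) and in KO alone (-0.008). For the KO effect between levels, *Cyp26a1* turned with coverage (0.0021) and embryo sex (0.11), and *Cyp26b1* with coverage (-0.091). Leaving out 1 library turned brachial *Cyp26a1* (range -0.71 to 0.13), lumbar *Crabp2* (-0.27 to 0.14), *Cyp26b1* (-0.23 to 0.22) and *Rarb* (-0.011 to 0.19), level *Crabp1* (-0.018 to 0.071) and *Cyp26a1* (-0.066 to 0.31), and for the KO effect between levels *Crabp1* (-0.15 to 0.0497), *Cyp26a1* (-0.45 to 0.40) and *Crabp2* (-0.054 to 0.36). The causes were not tested. The replicate block, a pairing by number that the data do not bear out, gave 0 brachial and 0 lumbar KO calls and 2330 level calls, and it changed no call among the listed genes. The files hold no counts, so depth limits on *Aldh1a1*, *Aldh1a3* and *Cyp26c1* cannot be stated.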
